A study of Homo sapiens with 12 samples.

Results

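The inducible heat shock genes of the cytosol were described across 4 groups of Caco-2 cells. The genes were chosen by name: 10 symbols covering the HSP70, HSP40, HSP90, HSP110 and small HSP families with the exchange factor BAG3 were looked up among the 26125 entries of the deposited expression table, and 10 of 10 were found. All 10 passed the filter used for testing, an average of 1 FPKM or more across the 12 libraries, as did 12928 entries of the whole table. Caco-2 comes from a human colon adenocarcinoma and, once confluent, differentiates into a sheet resembling absorptive gut cells. Every group was grown for 21 days on transwell inserts and moved to a buffered salt solution. The control group, labelled as untreated, received nothing further. The CW14 group received Bacillus subtilis CW14, a bacterium that the series title calls probiotic, at a dose that the labels print as 1010 CFU/mL and that may have lost its exponent. The OTA group received ochratoxin A (OTA), a kidney- and gut-toxic product of food moulds, at 15 µmol/L. The combined group received both, at the same doses. Both agents were added to the apical chamber of 0.5 mL. Each group had 3 libraries. The labels do not give the length of exposure, and nothing in them says that the 3 libraries were separate cultures, so that p-values measure the spread between these libraries, which may be technical. The monolayer is 1 tumour-derived cell line without the other cells of the gut wall.

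Heat shock proteins are chaperones that bind unfolded proteins and keep them from clumping. When unfolded protein builds up, the transcription factor HSF1 is released from its chaperones, forms trimers and binds heat shock elements, arrays of the unit NGAAN in alternating orientation, upstream of these genes. HSP70 proteins refold clients in an ATP cycle that HSP40 (J-domain) proteins start and that HSP110 and BAG proteins reset by exchanging the nucleotide. HSP90 matures signalling proteins, and small HSPs hold unfolded clients without ATP. In the intestinal epithelium, inducible HSP70 and HSPB1 are known to be raised by gut bacteria and to protect the barrier.

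The upstream sequence of the members was searched for the heat shock element, the feature that these genes are best known to share. Genes chosen as inducible heat shock genes are known for this element, so its presence describes them and is not a test. Promoter sequences were those of RefSeq on GRCh38.p14, in the 250 bases before each annotated start. They held 9 of the 10 genes, and HSPA7 was not among them. The letters searched were GAANNTTC and TTCNNGAA, each its own reverse complement, which are 2 facing units, and the 3-unit arrays GAANNTTCNNGAA and TTCNNGAANNTTC, which are reverse complements of each other and contain both 2-unit motifs. At least 1 of the 2-unit motifs stood in 7 of the 9 genes, against 11.6% of 35116 promoters (14.0% of 27305 genes). At least 2 stood in 4 of the 9, against 1.32% of promoters (1.65% of genes). A 3-unit array stood in 3 of the 9, against 0.441% of promoters (0.557% of genes). The stretches with the matches in capitals are given 5′ to 3′ on the gene's strand, to show how much the elements differ from gene to gene.
HSPA6, chr1:161524454-161524490, plus strand, 3 units: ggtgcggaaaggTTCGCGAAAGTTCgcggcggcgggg
HSPA6, chr1:161524348-161524379, plus strand, 2 units: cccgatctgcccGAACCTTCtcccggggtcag
HSPA1A, chr6:31815425-31815456, plus strand, 2 units: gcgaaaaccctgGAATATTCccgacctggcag
HSPA1B, chr6:31827621-31827652, plus strand, 2 units: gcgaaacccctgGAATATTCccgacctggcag
HSPA8, chr11:123062342-123062378, minus strand, 3 units: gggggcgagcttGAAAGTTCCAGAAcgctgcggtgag
HSPA8, chr11:123062167-123062203, minus strand, 3 units: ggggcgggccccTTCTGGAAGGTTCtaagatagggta
DNAJB1, chr19:14518425-14518486, minus strand, 2 separate matches: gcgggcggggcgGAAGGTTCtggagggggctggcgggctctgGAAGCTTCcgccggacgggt
HSP90AA1, chr14:102087093-102087144, minus strand, 3 units and a further match: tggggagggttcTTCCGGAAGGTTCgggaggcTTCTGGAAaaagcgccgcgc
HSPB1, chr7:76302479-76302510, plus strand, 2 units: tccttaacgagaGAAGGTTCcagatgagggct
The matches of DNAJB1 lay before the second of its 3 listed starts and those of HSP90AA1 before the second of 2. The other listed starts of these genes had no match, and neither did the windows of BAG3 and HSPH1, which says only that these letters are not there. The 250-base promoters of HSPA1A and HSPA1B were 93.6% identical. A match describes the letters and was not tested as a bound site in these cells.

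Before the members, the libraries themselves were compared. Depth was not given with the FPKM values, which divide a gene's fragments by transcript length and by library size. Combined replicate 3 stood apart: the SD of its genes about the group means was 0.588 on the log2 scale, against 0.305 to 0.424 in the other 11 libraries. The summed level of 12 enterocyte markers, among them villin (VIL1) and the lipoprotein APOA1, was 25585 FPKM in this library. It was 7202 to 10123 FPKM in the 9 libraries of the other groups, and the lowest combined library held 9535 FPKM. APOA1 alone made up 19185 FPKM of the sum in combined replicate 3. It was at 7219 and 5364 FPKM in combined replicates 1 and 2, and at 3131 to 5635 FPKM in the other groups, so replicate 1 was also above those groups. The other 11 markers together held 6399 FPKM in combined replicate 3, against 4056 to 5377 FPKM in the other 11 libraries. They did not move one way: KRT8 was the highest of all libraries (3976 FPKM) and CDH1 the lowest (204 FPKM, against 261 to 347 FPKM). KRT20, at 3.34 FPKM, was within the 3.25 to 14.1 FPKM of the other 11 libraries. Of the 12 enterocyte markers, 11 were above 1 FPKM in every control library and 11 in every OTA library. In every CW14 library and in every combined library 10 were. Sucrase-isomaltase (SI) was the one below in the control, and it was at 0 to 0.148 FPKM over all 12 libraries. In a list of 12 markers of other cell types, the leukocyte gene PTPRC and the goblet cell gene SPINK4 were at 0 in all 12 libraries, and the whole list summed to 56.6 to 132 FPKM. Nearly all of that sum was CD68, a lysosomal gene used as a macrophage marker, at 49.4 to 127 FPKM. The other 11 genes of the list together held 3.24 to 8.35 FPKM. Values without combined replicate 3 are given beside the results on the members and after those on the other lists.

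HSPA6, the strictly stress-inducible HSP70 that resting cells hardly make, was the member with the largest fold change between groups. The control libraries held 81.6, 92.4 and 80.0 FPKM, the CW14 libraries 22.3, 13.5 and 5.08 FPKM, the OTA libraries 17.7, 22.6 and 17.5 FPKM and the combined libraries 4.22, 2.01 and 2.87 FPKM. The highest level was thus in untreated cells, each single agent took it down, and the combined libraries lay below all others. Means were 84.7 ± 6.75 FPKM in the control, 13.6 ± 8.62 in CW14, 19.3 ± 2.91 in OTA and 3.03 ± 1.11 in the combined group (SD, n = 3 each). The fall from control was 6.21-fold with CW14, 4.40-fold with OTA and 27.9-fold with both. In hg19 the table places HSPA6 at chr1:161494328-161496687. As these are bulk samples, fewer cells with the transcript and less transcript per cell cannot be told apart.

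HSPA7, a close relative of HSPA6 on the same chromosome (chr1:161575847-161578341) that is annotated as a pseudogene, followed the same order at a lower level. Control libraries held 11.2, 11.5 and 11.5 FPKM, CW14 libraries 3.99, 2.74 and 1.29 FPKM, OTA libraries 4.08, 2.71 and 3.52 FPKM and combined libraries 1.06, 0.884 and 0.540 FPKM. Again the control libraries were above all others and the combined libraries below. Of the 150-base windows of the HSPA7 transcript, the read length used, 19.0% are found unchanged in HSPA6, so that part of the reads could have been counted for either gene.

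HSPA1A and HSPA1B, the major inducible HSP70 genes, lie side by side on chromosome 6 (chr6:31783289-31785719 and chr6:31795510-31798031) and encode nearly the same protein. HSPA1A held 1381, 1182 and 982 FPKM in the control libraries, 731, 395 and 452 in CW14, 408, 419 and 395 in OTA and 298, 253 and 196 in the combined libraries. HSPA1B held 1184, 1029 and 843 FPKM in the control, 661, 348 and 424 in CW14, 367, 437 and 398 in OTA and 300.0, 242 and 181 in the combined group. For both genes every treated library was below every control library, the CW14 and OTA libraries overlapped, and the combined libraries were the lowest. The 2 genes are uncertain as single measurements, because 67.1% of the 150-base windows of the HSPA1A transcript occur unchanged in HSPA1B. Their ratio varied little, from 0.959 to 1.17 over the 12 libraries. Their summed level was 2200 ± 370 FPKM in the control, 1004 ± 344 in CW14, 808 ± 42.8 in OTA and 489.6 ± 111 in the combined group (SD, n = 3 each).

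HSPA8, the constitutive HSP70 (HSC70) that does most folding in resting cells, was the most abundant member per length in every library except combined replicate 3, where HSP90AA1 was above it. It held 1985, 1688 and 1657 FPKM in the control, 1220, 898 and 903 in CW14, 1386, 1311 and 1318 in OTA and 872, 845 and 770 in the combined libraries (chr11:122928198-122933043). Its OTA libraries lay above all CW14 libraries, whereas these groups overlapped in HSPA6, HSPA7, HSPA1A and HSPA1B. The means of HSPA6 and HSPA7 were also higher with OTA than with CW14, and those of HSPA1A and HSPA1B were lower. The combined libraries of HSPA8 were all below its CW14 libraries as well, the nearest being 872 and 898 FPKM.

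DNAJB1, the main inducible HSP40, which delivers clients to HSP70 and starts its ATP cycle, ordered the 4 groups without any overlap. Control libraries held 508, 411 and 388 FPKM, CW14 libraries 248, 161 and 136, OTA libraries 76.3, 85.7 and 70.6 and combined libraries 44.1, 51.0 and 37.7 (chr19:14625574-14629371). The fall from control was 2.40-fold with CW14, 5.62-fold with OTA and 9.85-fold with both. DNAJB1 thus had OTA below CW14, whereas the mean of HSPA6 was higher with OTA than with CW14.

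HSPH1, the HSP110 that recharges HSP70 with ATP, held 48.5, 45.1 and 50.4 FPKM in the control, 26.6, 21.3 and 17.4 in CW14, 30.4, 27.4 and 28.0 in OTA and 23.4, 20.5 and 17.4 in the combined libraries (chr13:31709109-31736525). The CW14 and combined libraries overlapped and both lay below OTA. BAG3, the exchange factor that also sends HSP70 clients to autophagy, held 79.3, 74.1 and 73.9 FPKM in the control, 44.0, 43.5 and 39.6 in CW14, 34.5, 32.9 and 28.4 in OTA and 24.9, 24.8 and 23.3 in the combined libraries (chr10:121410880-121437329). Its groups did not overlap and stood in the same order as those of DNAJB1, with small spreads of 0.890 to 3.13 FPKM (SD).

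HSP90AA1, the inducible HSP90, held 794, 701 and 690 FPKM in the control, 542, 427 and 418 in CW14, 507, 495 and 579 in OTA and 501, 426 and 926 in the combined libraries (chr14:102547073-102606086). HSPB1, the small heat shock protein HSP27, held 156, 195 and 218 FPKM in the control, 109, 103 and 110 in CW14, 164, 119 and 129 in OTA and 219, 162 and 426 in the combined libraries (chr7:75931873-75933614). In both genes combined replicate 3 was the highest of all 12 libraries. It was also the library with the high APOA1 and KRT8 and the low CDH1, and the part of that difference in these 2 genes was not tested. The other 2 combined libraries of HSP90AA1 were within the range of the CW14 and OTA libraries, and those of HSPB1 lay at 219 and 162 FPKM, beside 156 to 218 FPKM in the control.

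**Figure D1:**
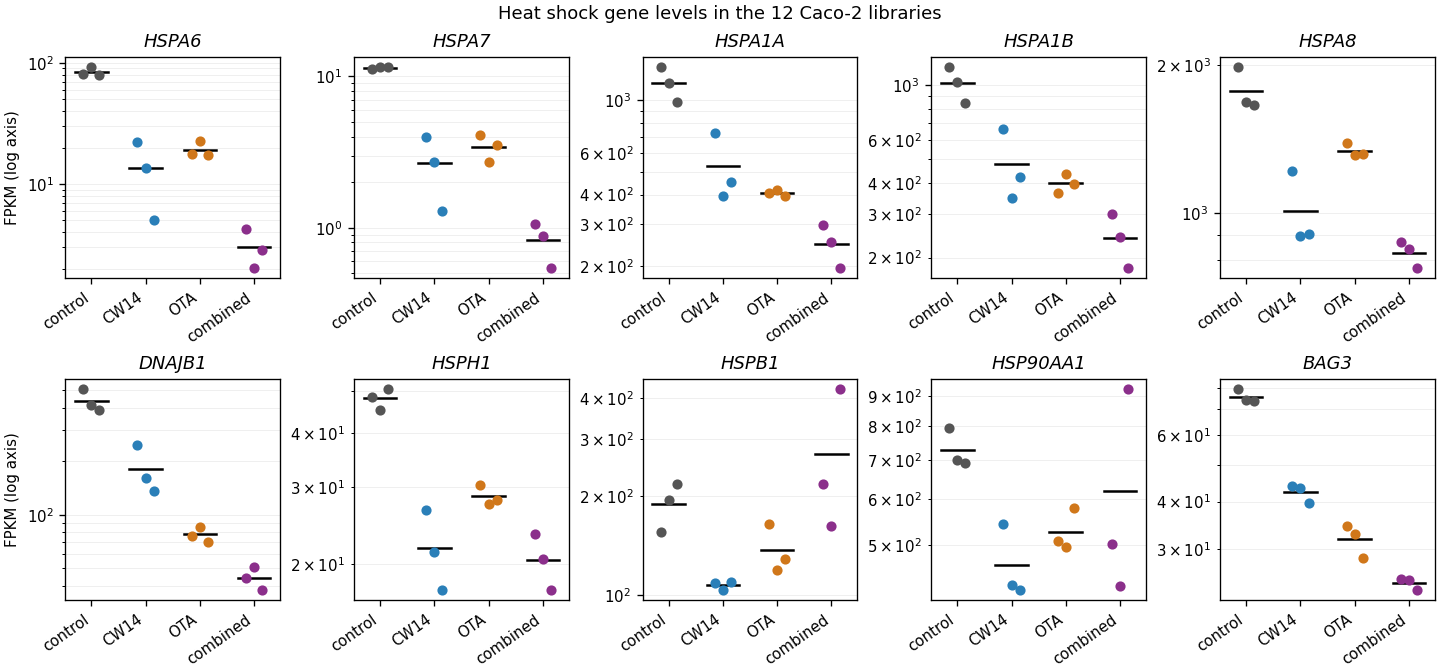
FPKM (log axis) of the 10 heat shock genes in the 3 libraries of each group, with a bar at the group mean. For 8 genes the 3 combined libraries lie below all 3 control libraries, while for HSP90AA1 and HSPB1 combined replicate 3 is the highest point.

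The groups were compared with limma on log2(FPKM + 1) over all 12928 entries, with Benjamini-Hochberg adjustment over all of them. A gene is called at an adjusted p below 0.05, and genes with few FPKM change by more than their log2 difference on this scale shows. By the F test of any difference among the 4 groups, 9 of 10 members were called, against 37.5% of all entries. HSP90AA1 was the member that was not (limma adjusted p = 0.151).

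With the bacterium alone, 7 of 10 members fell against control and 0 rose by limma (also 0 at an unadjusted p below 0.05), while 0.147% of all entries fell and 0.217% rose. The median log2 difference of the 10 was -1.13, against -0.019 over all entries, and in all 10 genes the 3 CW14 libraries lay below the 3 control libraries, as they did in 10.9% of all entries. Only 19 entries fell in this comparison, and the 7 members were 36.8% of these entries and 70% of the members. HSPA6 had the largest log2 difference among the members (-2.75, SE 0.377, limma adjusted p = 0.00866), the 14th lowest of all 12928. HSPA7 changed by -1.83, HSPH1 by -1.12 and BAG3 by -0.82 (limma adjusted p = 0.00866, 0.00928 and 0.00866). DNAJB1 changed by -1.29, HSPA8 by -0.83 and HSPA1A by -1.21 (limma adjusted p = 0.0198, 0.034 and 0.0486). HSPA1B at -1.13, HSPB1 at -0.80 and HSP90AA1 at -0.66 did not pass (limma adjusted p = 0.105, 0.577 and 0.607). Summed, HSPA1A and HSPA1B stood at -1.17 (limma adjusted p = 0.0749).

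The calls with CW14 depended on single libraries. With any 1 of the 3 control libraries left out, limma called 0 of the 10 at an adjusted p below 0.05, and 9, 10 and 9 of them at an unadjusted p below 0.05. Without CW14 replicate 2 or 3, or without OTA replicate 1, it called 4, 2 and 4. Without combined replicate 3 it called all 10, where 0.526% of all entries were lower and 0.425% higher. In each of these fits the 10 log2 differences stayed below 0.

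With the toxin alone, 7 of 10 members fell against control and 0 rose by limma (also 0 at an unadjusted p below 0.05), where 12.9% of all entries fell and 4.82% rose. The median log2 difference of the members was -1.28, against 0.027 over all entries, and 9 of the 10 had OTA libraries all below the control libraries, as did 25.7% of all entries. DNAJB1 had the largest difference (-2.47, SE 0.206, limma adjusted p = 9.95e-06), followed by HSPA6 (-2.09, SE 0.377, limma adjusted p = 0.00245). HSPA1A fell by 1.52, HSPA7 by 1.50, HSPA1B by 1.33 and BAG3 by 1.22 on the log2 scale (limma adjusted p = 0.000634, 0.00162, 0.00238 and 1.94e-05). HSPH1 fell by 0.73 (limma adjusted p = 0.00831). The constitutive HSPA8 at -0.40, HSPB1 at -0.46 and HSP90AA1 at -0.47 did not pass (limma adjusted p = 0.0773, 0.289 and 0.206). Without combined replicate 3, whose spread enters the shared error, all 10 passed in this comparison. In that fit 19% of all entries fell and 14.7% rose.

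CW14 and OTA share the same control libraries, so their differences from control are not independent. A direct comparison of OTA with CW14 was added after the data were seen. Of the 10 members 2 were lower with OTA than with CW14 and 0 higher by limma (2 higher at an unadjusted p below 0.05), where 12.3% of all entries were lower and 5.85% higher. DNAJB1 was lower by a log2 difference of -1.18 (SE 0.206, limma adjusted p = 0.00211) and BAG3 by -0.40 (SE 0.114, limma adjusted p = 0.0307). HSPA8 at 0.43 and HSPH1 at 0.40 did not pass (limma adjusted p = 0.0624 and 0.109). Without combined replicate 3 both passed (limma adjusted p = 0.0188 and 0.038). Of all entries, 18.7% were lower and 16.3% higher in that fit. For HSPA6 the difference was 0.66, with a 95% interval of -0.16 to 1.48. The call of BAG3 ended without control replicate 2, CW14 replicate 1 or 2 or OTA replicate 2 or 3.

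**Figure D2:**
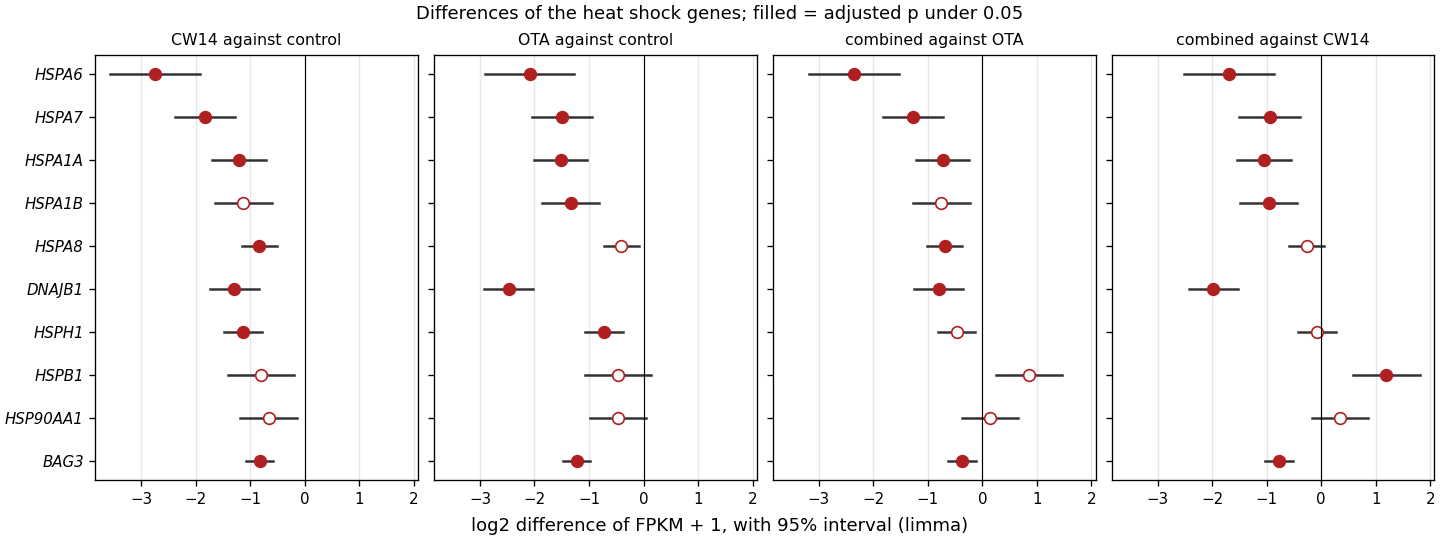
Log2 difference of FPKM + 1 with its 95% interval for each heat shock gene in 4 comparisons (filled, limma adjusted p below 0.05). DNAJB1 lies at -1.29 with CW14 and at -2.47 with OTA, and HSPB1 is the member above 0 with a filled point, in the combined group against CW14 (1.20).

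The combined group shows how the levels of these genes differ when CW14 is present together with the toxin. Against OTA alone, 6 of 10 members fell and 0 rose by limma (1 higher at an unadjusted p below 0.05, HSPB1), where 8.22% of all entries fell and 7.79% rose. In 8 members the combined libraries all lay below the OTA libraries, as in 16.6% of all entries. HSPA6 fell by 2.36 and HSPA7 by 1.28 on the log2 scale (limma adjusted p = 0.00414 and 0.00935). DNAJB1 fell by 0.80, HSPA1A by 0.73, HSPA8 by 0.69 and BAG3 by 0.37 (limma adjusted p = 0.0246, 0.0462, 0.0115 and 0.0448). HSPA1B at -0.76 and HSPH1 at -0.47 had no overlap with OTA but did not pass (limma adjusted p = 0.0506 and 0.062). HSPB1 at 0.86 and HSP90AA1 at 0.15 did not pass either (limma adjusted p = 0.0561 and 0.696). Both overlapped with OTA. Leaving out any 1 of the 3 OTA libraries reduced the count to 3. With combined replicate 3 left out, 5 members were called, all lower, where 11.8% of all entries were lower and 9.41% higher. HSPB1 then stood at 0.47 and HSP90AA1 at -0.19.

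Against CW14 alone, 6 of 10 members were lower and 1 was higher in the combined group, where 17.5% of all entries were lower and 14.8% higher. The libraries of the 2 groups did not overlap in 7 members that were lower and 1 that was higher, as in 21.9% and 19.9% of all entries. DNAJB1 fell most (-1.98, SE 0.206, limma adjusted p = 3.72e-05), then HSPA6 (-1.69), HSPA1A (-1.05), HSPA1B (-0.96), HSPA7 (-0.95) and BAG3 (-0.77), with limma adjusted p between 0.000506 and 0.015. HSPA8 at -0.27 did not pass (limma adjusted p = 0.176), nor did HSPH1 at -0.077, with a 95% interval of -0.42 to 0.27. HSPB1 was higher by 1.20 (SE 0.280, limma adjusted p = 0.0077), and all 3 combined libraries were above all 3 CW14 libraries. Without combined replicate 3 the rise of HSPB1 was 0.81 (limma adjusted p = 0.00478), so the call did not rest on that library.

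Against control, 8 of 10 members fell and 0 rose by limma in the combined group (also 0 at an unadjusted p below 0.05), where 16.8% of all entries fell and 12.0% rose. These 8 had combined libraries all below the control libraries, as did 22.8% of all entries. HSPA6 had a log2 difference of -4.44 (SE 0.377, limma adjusted p = 8.13e-06), DNAJB1 of -3.27 (SE 0.206, limma adjusted p = 7.25e-07), HSPA7 of -2.77, HSPA1A of -2.25 and HSPA1B of -2.09. BAG3 changed by -1.60, HSPH1 by -1.20 and HSPA8 by -1.10, and these 6 had limma adjusted p of at most 0.000249. HSPB1 at 0.39 and HSP90AA1 at -0.32 did not pass (limma adjusted p = 0.31 and 0.328). Without combined replicate 3, HSP90AA1 stood at -0.65 and passed (limma adjusted p = 0.00357), and HSPB1 stood at 0.00131 (limma adjusted p = 0.998).

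The interaction term asks whether the change with both agents differs from the sum of the 2 single changes on the log2 scale. On this scale it was above 0 in all 10 members, which means a smaller fall or a larger rise than that sum. How many of all entries were above 0 was not counted. The median term was 0.48 in the members, against 0.037 over all entries. In the other chaperone lists described below, the medians were also above 0, from 0.063 (HSP70 co-chaperones) to 0.64 (HSP90 co-chaperones). The 10 terms share the same libraries, so they are not separate results. For HSPA6 and HSPA7, at 3.03 and 0.827 FPKM in the combined group, the term also depends on the 1 added to each FPKM. In mean FPKM, HSPA6 fell 6.21-fold with CW14, 4.40-fold with OTA and 27.9-fold with both. The last fold is close to the product of the single ones. HSPB1 was the member called (1.66, SE 0.396, 95% interval 0.80 to 2.52, limma adjusted p = 0.0465). A term above 0 was called in 1.85% of all entries and one below 0 in 1.49%. The terms of HSPH1 (0.65), HSP90AA1 (0.81) and BAG3 (0.45) had intervals above 0 but did not pass after adjustment (limma adjusted p = 0.112, 0.163 and 0.121). For HSPA6 the term was 0.39 with a 95% interval of -0.77 to 1.55, and for HSPA8 it was 0.14 with an interval of -0.31 to 0.58. Without combined replicate 3, the terms of HSPB1 (1.27), HSPH1 (0.76) and BAG3 (0.48) passed (limma adjusted p = 0.00989, 0.0338 and 0.0404). In that fit a term above 0 was called in 6.05% of all entries and one below 0 in 6.29%. The call of HSPB1 held in 6 of 18 alternatives. Among others, it ended without the filter on low values and with the removal of combined replicate 1 or of any 1 library of the other 3 groups (limma adjusted p up to 0.126 over the libraries left out).

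**Figure D3:**
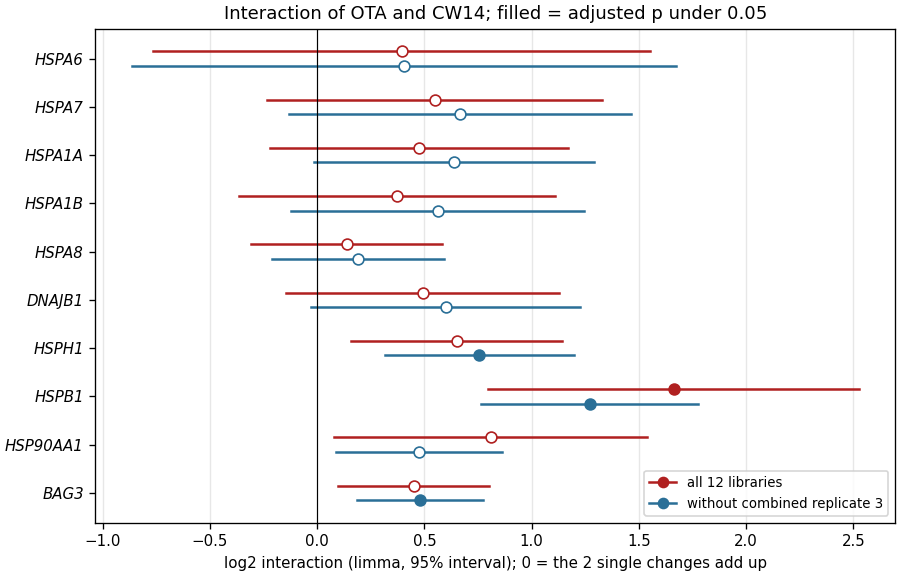
Interaction term of each heat shock gene on the log2 scale with its 95% interval, in all 12 libraries and without combined replicate 3 (filled, limma adjusted p below 0.05). At 0 the 2 single changes add up. HSPB1 lies at 1.66 and 1.27.

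The levels of inducible chaperones relative to constitutive ones are given per group, with no test. HSPA1A and HSPA1B together stood at 1.23 ± 0.116 of the HSPA8 level in the control, 0.980 ± 0.158 in CW14, 0.605 ± 0.0473 in OTA and 0.587 ± 0.0982 in the combined group (SD, n = 3 each, ratio of FPKM). By library the ratio was 1.29, 1.31 and 1.10 in the control, 1.14, 0.827 and 0.970 in CW14, 0.559, 0.653 and 0.602 in OTA and 0.685, 0.585 and 0.489 in the combined group. CW14 overlapped with the control, and every library with OTA was below every library without it. HSPA6 reached 4.81% ± 0.682 of the HSPA8 level in the control, 1.30% ± 0.659 in CW14, 1.44% ± 0.247 in OTA and 0.365% ± 0.123 in the combined group. The ratio of HSP90AA1 to its constitutive partner HSP90AB1 was 1.07 ± 0.0703 in the control, 0.867 ± 0.172 in CW14, 0.746 ± 0.0826 in OTA and 1.01 ± 0.230 in the combined group, where replicate 3 alone had 1.26. The HSP90AA1 ratio of the control overlapped with those of CW14 and the combined group. The FPKM of the 10 members together came to 5551 ± 627 in the control, 2842 ± 665 in CW14, 2972 ± 21.4 in OTA and 2298 ± 277 in the combined group.

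**Figure D4:**
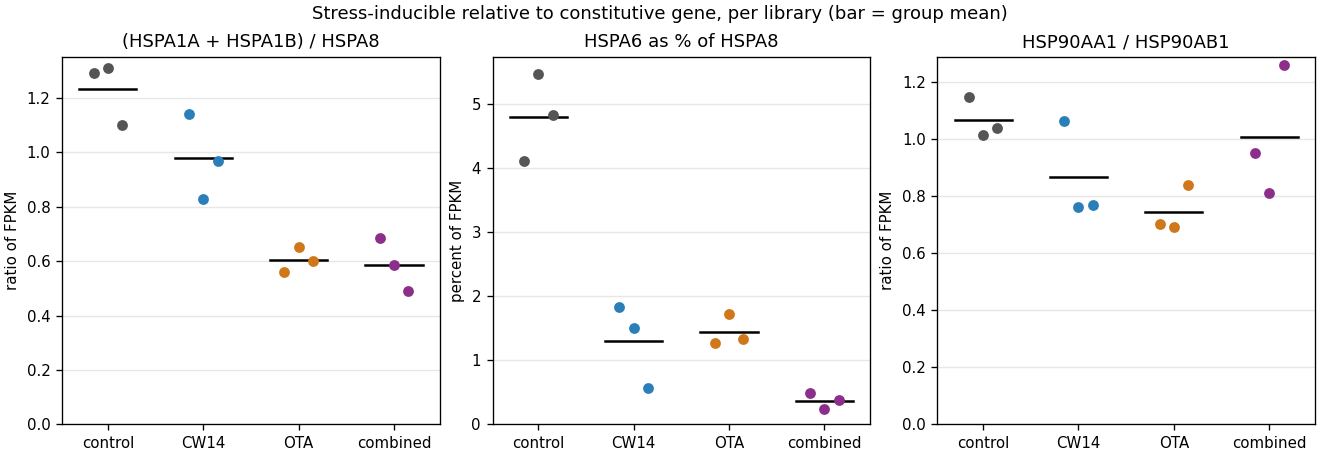
Ratio of FPKM per library for (HSPA1A + HSPA1B) to HSPA8, HSPA6 as a percentage of HSPA8, and HSP90AA1 to HSP90AB1, with a bar at the group mean. In the first panel the OTA and combined libraries, from 0.489 to 0.685, lie below all control and CW14 libraries.

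Over the 12 libraries, 8 members had correlations of 0.853 to 0.954 with the mean of the other members, as a description that includes the group differences. For HSPA6, HSPA7, HSPA1A and HSPA1B that mean holds a close copy that may share reads, so part of the correlation may be built in. The copies HSPA1A and HSPA1B correlated at 0.996, and HSPA6 and HSPA7 at 0.981. HSP90AA1 had 0.482 over 12 libraries and 0.928 without combined replicate 3. HSPB1 had -0.076 and 0.305.

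Other chaperones and HSF1-linked genes were read from lists chosen with earlier results of these data known, and the lists share some genes. With CW14, the lists held 3 calls, all lower: the HSP40 gene DNAJA1 (-0.74, limma adjusted p = 0.0486), the G-protein regulator RGS2 (-1.80, limma adjusted p = 0.00602), an HSF1 target in some cells, and HSPA5 (-0.78, limma adjusted p = 0.0107), the HSP70 of the endoplasmic reticulum. RGS2 was called in 18 of 19 alternatives and HSPA5 in 14, but DNAJA1 in 3, and its adjusted p reached 0.27. When combined replicate 3 was left out, 8 of 20 other HSF1 target genes were called lower, where 0.526% of all entries were. Limma called 0 of 13 HSP90 co-chaperones (4 lower at an unadjusted p below 0.05), 0 of 13 HSP70 co-chaperones (1 lower), 0 of 10 other HSP70, HSP90 and small HSP genes (1 lower), 0 of 8 TRiC/CCT chaperonin genes (0 at that p) and 0 of 12 mitochondrial chaperones and proteases (4 lower). Their medians were -0.32, -0.068, -0.31, -0.21 and -0.25, against -1.13 for the 10 members, and that of 20 other HSF1 target genes was -0.54. At an unadjusted p below 0.05, 12 of those 20 were lower, as were 8 of 15 endoplasmic reticulum chaperones (median -0.30) and 4 of 15 other HSP40 genes (median -0.093). Among 5 heat shock factors and regulators it called 0 (1 lower at an unadjusted p below 0.05). HSF1 itself stood at -0.048 (limma adjusted p = 0.989) and HSF2 at 0.14 (limma adjusted p = 0.975). HSP90AB1 at -0.35 and the mitochondrial HSP70 gene HSPA9 at -0.28 did not pass (limma adjusted p = 0.677 and 0.656).

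With OTA, 10 of 20 other genes widely used as HSF1 targets fell and 0 rose, where 12.9% of all entries fell and 4.82% rose. Their median was -0.86, and 13 were lower at an unadjusted p below 0.05. The list did not fall as a whole, since 10 genes were not called. Among these, SERPINH1 had means of 436 FPKM in the control and 490 with OTA, HSPD1 615 and 706, and HSPE1 178 and 186. The immediate early gene IER5, which activates HSF1, fell from 149 ± 15.5 FPKM in the control to 19.5 ± 4.22 with OTA (log2 difference -2.89, limma adjusted p = 1.13e-05) and RGS2 from 68.4 ± 11.7 to 11.1 ± 1.15 (-2.52, limma adjusted p = 1.37e-05; SD, n = 3 each). The death effector gene DEDD2 changed by -2.19 (limma adjusted p = 1.43e-05). Among the other HSP40 proteins 5 of 15 fell and 1 rose, with DNAJA1 at -0.96, DNAJB4 at -1.37 and DNAJC27 at -1.05 (limma adjusted p = 0.000493, 0.00512 and 0.00646). HSPB8, the small HSP that works with BAG3, fell by 1.24 (limma adjusted p = 0.0027) and HSPA14 by 0.96 (limma adjusted p = 0.00214), and 0 of 10 in that list rose. Of the co-chaperones, TTC4 (-1.14), BAG4 (-0.67) and BAG5 (-0.65) fell and ST13, which holds HSP70 on its clients, rose by 0.55 (limma adjusted p = 0.0306, 0.028, 0.0224 and 0.00721). Of 15 endoplasmic reticulum chaperones 2 fell, HSPA5 (-1.18) and DNAJB9 (-1.68), and 0 rose (limma adjusted p = 2.39e-05 and 0.000324). The median of these 15 was 0.008, with 5 lower and 3 higher at an unadjusted p below 0.05. Of 12 mitochondrial chaperones and proteases 3 fell, HSPA9 (-0.38), GRPEL1 (-0.61) and GRPEL2 (-1.63), and 0 rose (limma adjusted p = 0.026, 0.009 and 3.84e-05). The median of these 12 was 0.16, with 3 lower and 1 higher at an unadjusted p below 0.05. Limma called 0 of 8 TRiC/CCT genes (1 higher at an unadjusted p below 0.05) and 0 of 5 heat shock factors and regulators (1 higher). HSF1 stood at 0.11, HSF2 at -0.27 and HSP90AB1 at 0.054 (limma adjusted p = 0.755, 0.428 and 0.827). With combined replicate 3 left out, more genes passed with OTA, also over all entries, of which 19% were lower and 14.7% higher. Lower were 13 of 20 HSF1 target genes, 8 of 15 other HSP40 genes and 6 of 15 endoplasmic reticulum chaperones. Higher were 4 of 15 endoplasmic reticulum chaperones and 2 of 8 TRiC/CCT genes. TTC4, BAG4, BAG5 and HSPA9 were called in 12 or 13 of 19 alternatives.

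In the combined group the other chaperones did not move as 1 body. Against OTA, 5 of 20 other HSF1 target genes fell and 1 rose, where 8.22% of all entries fell and 7.79% rose. JUN stood at -1.53, GADD45B at -1.01 and the haem oxygenase HMOX1 at 0.81 (limma adjusted p = 0.00265, 0.0213 and 0.0333). The ER chaperones had 4 of 15 lower and 0 higher, among them HSP90B1 (-0.57), DNAJB9 (-1.16) and HSPA5 (-0.42), with limma adjusted p = 0.00668, 0.00895 and 0.0283. DNAJB4 fell by 0.99, DNAJA2 by 0.40, HSPA13 by 1.02, ST13 by 0.67 and PTGES3 by 0.45, and the HSP90 co-chaperones FKBP5 and TTC4 rose by 0.86 and 1.09, with limma adjusted p between 0.00617 and 0.0418. In that order, the calls held in 11, 9, 15, 18, 10, 14 and 5 of 19 alternatives. DNAJA1 at 0.23, HSF1 at 0.47, HSF2 at -0.39, HSP90AB1 at -0.27 and HSPA9 at 0.13 did not pass (limma adjusted p = 0.26, 0.139, 0.219, 0.194 and 0.401). Against control, where 16.8% of all entries fell and 12.0% rose, 12 of 20 other HSF1 target genes fell and 0 rose. JUN stood at -3.60, IER5 at -3.71 and RGS2 at -3.30 (limma adjusted p of at most 1.16e-06). In the same comparison 3 of 13 HSP90 co-chaperones rose and 1 fell. Against CW14, 7 of those 13 rose and 0 fell, where 14.8% of all entries rose, with CACYBP at 0.87, FKBP4 at 1.01 and CDC37 at 0.90 (limma adjusted p = 0.00186, 0.00341 and 0.00648). The interaction was called above 0 for FKBP5 (1.41), DEDD2 (1.44) and DNAJA1 (0.97) and below 0 for JUN (-1.37), with limma adjusted p = 0.0414, 0.0219, 0.0277 and 0.0367. These 4 calls held in 7, 12, 10 and 8 of 18 alternatives. Over all entries 1.85% were called above 0 and 1.49% below. In the fit without combined replicate 3, 6 of the 13 HSP90 co-chaperones were above CW14, where 15% of all entries were higher. FKBP4 stood at 0.73 and CDC37 at 0.61 against CW14, both still called (limma adjusted p = 0.000686 and 0.00141). HMOX1 at 0.70, TTC4 at 0.80 and DNAJB4 at -0.65 then no longer passed against OTA (limma adjusted p = 0.0582, 0.094 and 0.0519), and HSP90AB1 at -0.43 did (limma adjusted p = 0.00387).

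**Figure D5:**
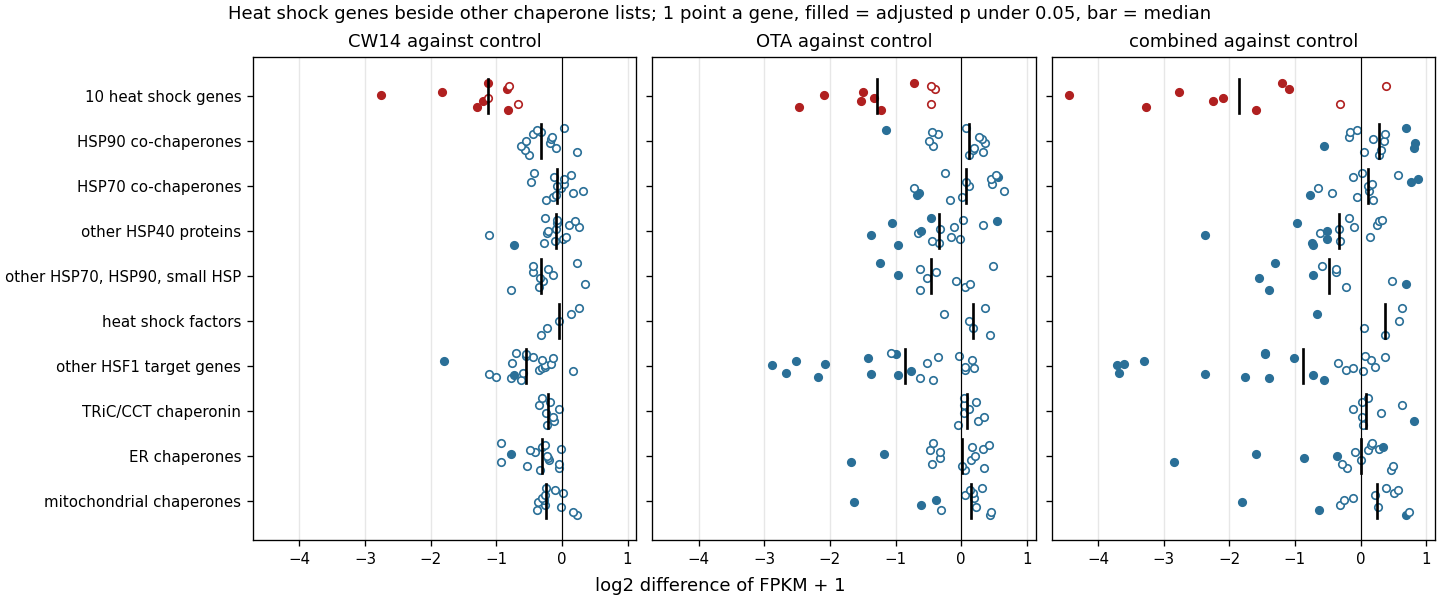
Log2 difference of FPKM + 1 for the 10 heat shock genes and the tested genes of 9 other chaperone and heat shock lists, 1 point a gene (filled, limma adjusted p below 0.05), with a bar at each median. The medians of the 10 genes are -1.13 with CW14, -1.28 with OTA and -1.84 with both.

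The genes outside the 10 whose levels followed them most closely over the 12 libraries were RGS2 (Pearson r = 0.94 with the mean standardised level of the members), RIOK2 (0.923), HSPA5 (0.922), HMGB2 (0.914) and EIF3J-AS1 (0.902). The libraries share their groups, so these values mostly reflect the order of the 4 group means and carry no test. HSPA5 held 919 ± 56.9 FPKM in the control, 536 ± 44.1 in CW14, 405 ± 5.80 in OTA and 303 ± 18.7 in the combined group (SD, n = 3 each). That is the order of the 4 groups also seen for DNAJB1 and BAG3.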

How the data were processed

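RNA of 12 Caco-2 libraries was analysed as gene-level FPKM, which the authors deposited in 1 table. Per the labels' protocols, a NEBNext Ultra RNA kit was used, with no mention of strand, and both ends were read for 150 bases. The submitters' processing notes name hg19 and, without their order, TopHat2 (2.0.13), Cufflinks (2.2.1) with Cuffdiff and Cuffnorm, and cutadapt (1.10). The sources used here do not give the annotation or how reads shared by near-identical genes were divided. Depth is unknown, so no counting interval is given. Groups and replicate numbers come from the sample titles.

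Values were tested with limma 3.58.1 in R 4.3.3 on log2(FPKM + 1), with 1 mean per group, a trended prior and 8 residual degrees of freedom, for entries with a mean of 1 FPKM or more. P-values are two-sided and adjusted by Benjamini-Hochberg over 12928 entries, and the code was tested on simulated data. The 10 members and all lists were chosen with earlier results of these data known. Named besides the members were up to 3 called genes per list and comparison with the smallest adjusted p, the genes HSF1, HSF2, HSP90AB1, DNAJA1, HSPA5 and HSPA9, and the 5 genes most correlated with the members. The chaperone list genes so named are given for CW14 and OTA against control and for the combined group against OTA, and in part for the other comparisons. List values without combined replicate 3 were added after seeing the data. Alternatives covered the pseudocount (0.1), the filter, the samples fitted, scaling, library weights, the replicate block, single libraries left out and summed copies.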

Additional observations from a re-analysis of the deposited data

Results flagged for a closer look

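The interaction of OTA and CW14 on HSPB1, the small heat shock protein gene, was 1.66 on the log2 scale (SE 0.396, limma adjusted p = 0.0465), a term for how the change with CW14 differs between cells with and without the toxin. Without the toxin, CW14 libraries held 107 ± 3.52 FPKM against 190 ± 31.4 in the control. With the toxin, combined libraries held 269 ± 139 FPKM against 137 ± 23.9 in OTA (SD, n = 3 each). Of the 3 combined libraries, replicate 3 had 426 FPKM and the others 219 and 162. Without replicate 3 the interaction was 1.27 (limma adjusted p = 0.00989). The interaction was called in 6 of 18 alternatives. It was not called without the filter on low values, with the replicate block, or with combined replicate 1 or any 1 library of the other 3 groups left out (limma adjusted p up to 0.126 over the libraries left out).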

How the results depend on the processing

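Of 1348 alternative values for the 70 member results, 1177 kept their direction and their side of the threshold, 110 lost a call, 53 gained one and 8 changed direction. Of 2081 such values for the named genes of the other lists, 1810 kept both, 234 lost a call, 24 gained one and 13 changed direction. The FPKM table limits precision to 3 libraries a group, and absolute depth is unknown. Where the cause of a change is not the smaller number of samples or the larger number of genes tested, the cause was not tested. With only the compared groups fitted (4 residual degrees of freedom in place of 8), members called were 2 against 7 for the combined group against CW14, 1 against 6 for the combined group against OTA and 2 against 7 for CW14 against control. The interaction could not be fitted in that way. Without the filter on low values, CW14 against control had 4 and the interaction 0. Library weights, which rest almost wholly on combined replicate 1 in that group (weight 32.2, against 0.266 and 0.0421), gave 5 for the interaction and 4 for OTA against CW14, and quantile normalization gave 2 for the interaction. Leaving out 1 library gave 0 to 10 members for CW14 against control, 3 to 6 for the combined group against OTA, 0 to 3 for the interaction and 1 to 4 for OTA against CW14. Centring each library on its median moved the median of all entries for OTA against control from 0.027 to 0.13 and the share of higher among called entries from 27.2% to 46.2%, with 7 members called as before. That share went from 48.6% to 36.7% for the combined group against OTA, from 32.2% to 49.3% for OTA against CW14 and from 55.5% to 39.5% for the interaction. Over all alternatives, entries called ranged from 1299 to 5864 for OTA against control (2288 as reported), from 4 to 333 for CW14 against control (47), from 70 to 7703 for the combined group against OTA (2070), from 1521 to 7991 against CW14 (4179), from 1596 to 8686 against control (3729), from 17 to 5124 for the interaction (431) and from 1274 to 5060 for OTA against CW14 (2345).

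Same-numbered libraries did not deviate together: 1 of 18 pairs had a correlation over 0.1 (range -0.15 to 0.154). With the replicate block the interaction had 0 members called, and the other comparisons had the same number of members called as without it.

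Directions changed as follows. HSP90AA1 in the combined group against OTA was -0.064 with library weights and ranged from -0.19 (without combined replicate 3) to 0.37 with 1 library left out, and in OTA against CW14 it was -0.0021 after quantile normalization. HSPH1 in the combined group against CW14 was 0.056 with library weights, 0.030 without combined replicate 3 and -0.22 to 0.072 over the libraries left out. HSPA6 in the interaction ranged from -0.14 (without CW14 replicate 3) to 0.83, and HSPA1B in OTA against CW14 from -0.41 to 0.057 (without CW14 replicate 1). Among the other genes named, DNAJA1 in the combined group against CW14 was -0.13 with library weights and -0.075 to 0.13 with 1 library left out. HSPA9 there ranged from -0.014 to 0.074, and HSF1 in CW14 against control from -0.085 to 0.024. HSP90AB1 in the combined group against CW14 was -0.00796 with library weights and -0.030 to 0.21 with 1 library left out, and in the interaction -0.061 and -0.084 to 0.16. After quantile normalization it was 0.086 in the combined group against OTA and -0.21 in OTA against control.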

Other observations

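The genes that fell most in the combined group were not ordered by their level in untreated cells. HSPA8, at 1776 ± 181 FPKM in the control, fell 2.14-fold in the combined group, while HSPA1A, at 1182 ± 199 FPKM, fell 4.75-fold. HSPH1, at 48.0 ± 2.70 FPKM, fell 2.35-fold, while BAG3, at 75.7 ± 3.06 FPKM, fell 3.11-fold and HSPA6, at 84.7 ± 6.75 FPKM, fell 27.9-fold (SD, n = 3 each, folds of mean FPKM). HSPA6 was the 14th lowest of 12928 entries by log2 difference in the combined group against control, and DNAJB1 the 45th.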
